A study of Mus musculus with 13 samples.

Results

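Collagen VI is represented here by 5 of the 49315 genes counted in polyA-selected RNA of mouse skeletal muscle by sequencing: Col6a1, Col6a2, Col6a3, Col6a5 and Col6a6. They were chosen by name, as the rows of the deposited count table whose Ensembl identifiers carry these symbols in the mouse annotation of build GRCm38, and all 5 passed the filter on low counts that left 16496 genes for testing. The 13 libraries comprised 3 of KO muscle from mice on the diet labelled HFSC, 4 of flox muscle on HFSC, 3 of KO muscle on chow and 3 of flox muscle on chow. KO stands for a systemic knockout of the miR-181a2b2 locus, and flox for animals homozygous for the floxed locus, which the sample titles call WT. The labels do not say which Cre or cross made the knockout, do not spell out HFSC, and give no age, sex or strain. They mention hindlimb ischemia for the whole series without a limb or time for any sample.

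Collagen VI is a microfibril-forming collagen of the muscle's extracellular matrix, laid down by interstitial fibroblasts around the basement membrane of each fibre. The alpha 1 and alpha 2 chains join a longer chain to form a triple-helical monomer, which is assembled into dimers and tetramers inside the cell and into beaded filaments outside it. In the common form the longer chain is alpha 3, and alpha 5 and alpha 6 resemble alpha 3 in domain layout and can take its place. Mutations of the genes for the first 3 chains cause Bethlem myopathy and Ullrich congenital muscular dystrophy in humans.

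Totals ran from 20830943 to 45710227 counts per library. Of the myofibre markers, Acta1, the actin of skeletal muscle fibres, stood at 16565 to 30595 CPM, the standard count scaled to a common library total, and the keratinocyte markers Krt5, Krt14, Krt1, Krt15 and Lor stayed at or below 0.136 CPM, while Krt10, the other keratinocyte marker, had 1.67 to 3.23 CPM. Mir181a-2 and Mir181b-2, the hairpins of the targeted locus, had 0 reads in the 6 KO libraries and 0 to 2 reads in the 7 flox libraries, too few to check the genotype labels. One library stood apart from its group: chow flox replicate 4 lay between the other 2 chow flox libraries and the chow KO libraries for every chain, so results on chow are also given without it. Scaling factors by trimmed mean of M values (TMM) were 0.834 to 0.960 in chow KO and 0.877 to 1.32 in chow flox.

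Col6a1 (ENSMUSG00000001119, GENCODE M21 on GRCm38, chr10:76708792-76726168) and Col6a2 (ENSMUSG00000020241, chr10:76595762-76623630) are neighbours on the minus strand, and Col6a3 (ENSMUSG00000048126, chr1:90765923-90843971) lies alone. Col6a5 (ENSMUSG00000091345, chr9:105856078-105960643) and Col6a6 (ENSMUSG00000043719, chr9:105687809-105828160) lie beside each other and beside Col6a4 (chr9:105989454-106096783), all on the minus strand as well. Counting was over exons of each gene as the authors ran it, and its strand setting is not given in the sources used here. Col6a6 shares 63 exon bases with Gm38314 on the opposite strand, so reads there could be shared if strand was not used in counting, whereas no exon of Col6a1, Col6a2, Col6a3 or Col6a5 overlaps an exon of another annotated gene.

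The promoters of the 3 abundant chains are shown because these genes moved together in what follows. The windows are the 250 bases before the start of each gene in RefSeq, on GRCm38.p6, written 5′ to 3′ on the gene's own minus strand. Capitals mark the CT element CCCTCCC on either strand, written GGGAGGG when it lies on the other strand, and the GC box GGGCGG on either strand.
Col6a1, chr10:76726045-76726074, bases -30 to -1 only: tctttgcacctCCCTCCCTCCCTCCCtcca
Col6a2, chr10:76623631-76623880: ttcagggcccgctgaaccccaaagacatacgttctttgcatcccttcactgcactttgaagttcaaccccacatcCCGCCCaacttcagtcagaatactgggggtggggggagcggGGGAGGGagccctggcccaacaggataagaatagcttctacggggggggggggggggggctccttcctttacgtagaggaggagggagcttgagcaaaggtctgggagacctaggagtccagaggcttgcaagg
Col6a3, chr1:90843972-90844221: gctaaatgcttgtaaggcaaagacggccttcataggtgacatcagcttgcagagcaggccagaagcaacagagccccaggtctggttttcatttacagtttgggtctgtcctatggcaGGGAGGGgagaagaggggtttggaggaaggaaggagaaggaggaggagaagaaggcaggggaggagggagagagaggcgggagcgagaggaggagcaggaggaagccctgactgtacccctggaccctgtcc
Only a short stretch is given for Col6a1, because its RefSeq start lies 124 bases inside the gene as GENCODE draws it. Its whole window held 5 matches to the CT element, of which the 3 shown overlap one another by 3 letters, while Col6a2 and Col6a3 held 1 match each and Col6a5 and Col6a6 held 0. At least 1 match was found in 19.1% of 27025 RefSeq promoters of the same length, and 3 or more in 1.3%. Neither the TATA box TATAAA (13% of promoters) nor the CCAAT box CCAAT (34.5%) occurred in any of the 5 windows. The GC box (32.9%) occurred once in Col6a2, once in Col6a5 and at 2 places in Col6a6. The AP-1 site TGANTCA (6.87%) occurred once in Col6a1, at bases -90 to -84. The AP-1 and CT matches of Col6a1 all lie inside the gene as GENCODE draws it. For Col6a6 the RefSeq start also lies inside the GENCODE gene, by 75 bases. The CT element was picked as a motif after the windows had been read, and these matches describe letters, not sites in use.

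The microRNAs lost from the targeted locus were compared with the chains' own 3′ UTRs. The mature sequences from RefSeq are shown with the seed, bases 2 to 8, in capitals, since it sets which messages can pair with them. The same mature microRNAs are also made from another locus in the mouse.
miR-181a-5p, chr2:38852741-38852763, plus strand: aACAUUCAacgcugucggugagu
miR-181b-5p, chr2:38853845-38853868, plus strand: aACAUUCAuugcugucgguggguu
Both share 1 seed, whose 8-base site TGAATGTA occurred in the longest annotated 3′ UTR of none of the 5 chains and in 6.08% of 13905 tested genes that have one. A 7-base site was present in Col6a3 and in Col6a5, shown here in 30 bases of GRCm38 on the minus strand with the site in capitals.
Col6a3, chr1:90766860-90766889: tttaaataaagtatatTGAATGTgccatga
Col6a5, chr9:105856188-105856217: ctcagaggaggTGAATGTtatcagagtgtt
A site of 7 or more bases was found in 23.7% of the same genes. Col6a1, Col6a2 and Col6a6 held none in the UTRs searched, and both of the chains with a site were lower in chow KO, as were the 3 chains without one.

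Levels are given as CPM scaled by TMM. Col6a1, Col6a2 and Col6a3 were abundant messages, ranked 918, 902 and 805 of 16496 tested genes by mean CPM, and together they made up 93.2% to 97.3% of the summed CPM of the 5 chains in each library. Per kilobase of the longest coding transcript, the mean in HFSC KO muscle was 39.1 CPM for Col6a1, 33.4 for Col6a2, 14.7 for Col6a3, 2.46 for Col6a6 and 0.213 for Col6a5. HFSC flox muscle gave 43.4, 41.0, 22.2, 2.56 and 0.240 CPM per kilobase for the same chains in the same order, and the order also held in chow KO and in chow flox. Col6a1 and Col6a2 are the closest neighbours in it, and Col6a2 was below Col6a1 on this scale in all 13 libraries. With all annotated exons of a gene as its length, the mean of Col6a2 in HFSC KO was 18.7 CPM per kilobase against 36.6 for Col6a1. The gap between these 2 chains thus depends on the length assumed. Both lengths are longer for Col6a2 (4653 and 8326 bases) than for Col6a1 (4100 and 4380 bases). Before division by length, counts of Col6a2 were 0.879 to 1.10 of those of Col6a1. Their order with a shorter transcript of Col6a2 was not tested.

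**Figure D1:**
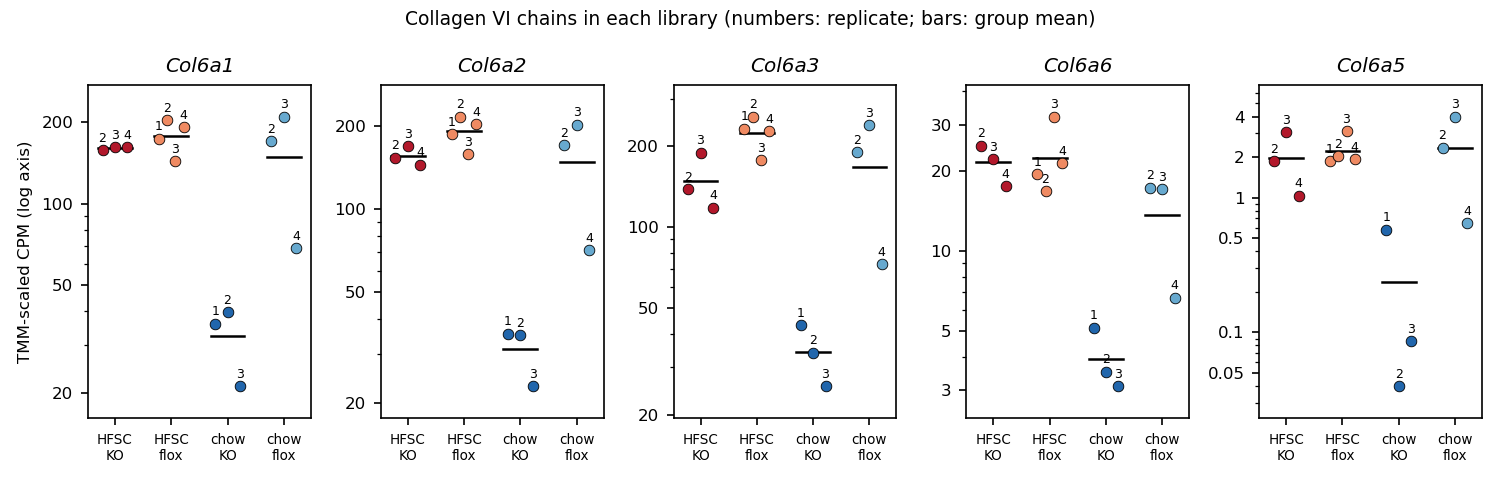
TMM-scaled CPM (log axis) of each collagen VI chain in each of 13 libraries, with the replicate number at each point and a bar at the group mean; panels have their own scales. All 3 chow KO libraries lie below every other library for each chain, and chow flox replicate 4 lies next above them for Col6a1, Col6a2, Col6a3, Col6a5 and Col6a6.

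The first question was how loss of the locus bears on collagen VI in muscle of mice on chow. All 5 chains fell in chow KO muscle relative to chow flox, by 3.49-fold for Col6a6 to 9.31-fold for Col6a5, and by 4.62- to 4.89-fold for the 3 main chains. A gene is called here when its adjusted p is under 0.05 in edgeR's quasi-likelihood test, adjusted by Benjamini-Hochberg over all 16496 genes. Of those genes, 10.1% were called lower in this comparison and 13.9% had chow KO libraries all below the chow flox libraries, and the 5 chains met both criteria. Muscle RNA was measured in bulk, so fewer cells of a type and less RNA per cell cannot be told apart.

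Col6a1, the gene for the alpha 1 chain, stood at 36.0, 39.8 and 21.2 CPM in chow KO replicates 1, 2 and 3, against 170, 210 and 68.4 CPM in chow flox replicates 2, 3 and 4. The groups did not overlap, although the lowest chow flox library was nearer to the highest chow KO library than to its own group. The log2 fold change was -2.21 ± 0.34 (SE, adjusted p = 0.0154 in edgeR). Col6a2, the gene for the alpha 2 chain, had 35.4, 35.0 and 23.0 CPM in chow KO, against 170, 202 and 71.1 CPM in chow flox. Its lowest library in each group was the same as for Col6a1, the groups did not overlap, and the log2 fold change was -2.25 ± 0.31 (SE, edgeR adjusted p = 0.0154).

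Col6a3, which encodes the long alpha 3 chain, had 43.2, 34.04 and 25.6 CPM in chow KO, against 190, 240 and 72.9 CPM in chow flox. Again chow flox replicate 4 was the low library of its group, and no chow KO library reached it. The log2 fold change was -2.29 ± 0.36 (SE, edgeR adjusted p = 0.0154). Col6a6, which encodes the alpha 6 chain, had 5.15, 3.52 and 3.10 CPM in chow KO, against 17.3, 17.1 and 6.67 CPM in chow flox. Chow KO replicate 1 came close under chow flox replicate 4, without overlap, and the log2 fold change was -1.80 ± 0.35 (SE, edgeR adjusted p = 0.0174).

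Col6a5, the gene for the alpha 5 chain, was a rare message. It had 17, 1 and 2 reads in chow KO replicates 1, 2 and 3, or 0.580, 0.0400 and 0.0862 CPM, against 95, 149 and 17 reads in chow flox replicates 2, 3 and 4, or 2.35, 3.98 and 0.648 CPM. Its log2 fold change of -3.22 ± 0.77 (SE, edgeR adjusted p = 0.0248) therefore rests on few reads, and it was -5.14 without chow KO replicate 1, the library with most of those reads, and -2.63 without chow flox replicate 3. In the chow KO group, 2 libraries lay under the 3 reads that a count of 0 would allow. Col6a4, the related mouse gene next to Col6a5, did not pass the filter: it had 1, 3 and 1 reads in chow KO and 7, 75 and 0 reads in chow flox replicates 2, 3 and 4, so that a single library held nearly all its reads on chow.

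Both the size and the call of these differences moved with single libraries. Without chow flox replicate 4 the log2 fold changes of the 5 chains ran from -3.63 for Col6a5 to -2.12 for Col6a6, with edgeR adjusted p of 8.21e-06 to 0.00114. That fit called 7261 of all genes in either direction. Leaving out replicate 3 of chow flox, 0 of the 5 chains were called (edgeR adjusted p of 0.0522 to 0.118). The same was true without replicate 2 of chow KO (0.0782 to 0.0954), without its replicate 3 (0.109 to 0.121), and when the fit held the 6 chow libraries alone (adjusted p = 0.191 for all 5). The loss of calls was not particular to the chains. Each of those fits with a library left out called 0 of all genes, and the fit of the chow libraries alone called 2. DESeq2, limma voom with sample weights and edgeR with unscaled library totals each called all 5 chains lower. Over all genes they called 3256, 9877 and 3096 in either direction.

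On HFSC the same genotype comparison gave small differences, and none of the 5 chains was called. Of all tested genes, 3 were called in this comparison, or 0.0182%. Col6a1 had 158, 162 and 162 CPM in HFSC KO replicates 2, 3 and 4, against 174, 203, 143 and 191 CPM in HFSC flox replicates 1 to 4. The 3 HFSC KO libraries fell inside the range of the HFSC flox libraries, and the log2 fold change was -0.15 (95% interval -0.81 to 0.50, edgeR adjusted p = 0.912). Col6a2 had 153, 169 and 145 CPM in HFSC KO and 187, 215, 157 and 203 CPM in HFSC flox. Its difference was -0.29 (95% interval -0.89 to 0.30, edgeR adjusted p = 0.772), with HFSC KO replicates 2 and 4 below all 4 flox libraries.

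Col6a3 had 139, 189 and 118 CPM in HFSC KO, against 233, 258, 178 and 228 CPM in HFSC flox, so that HFSC KO replicate 3 alone reached the flox range. It had the lowest log2 fold change of the 5 chains on HFSC, at -0.59 (95% interval -1.29 to 0.11, edgeR adjusted p = 0.564), and no tool or left-out library gave it a call. Col6a6 had 24.99, 22.2 and 17.5 CPM in HFSC KO, against 19.6, 16.8, 32.1 and 21.4 CPM in HFSC flox, and Col6a5 had 1.86, 3.05 and 1.04 CPM in HFSC KO, against 1.86, 2.03, 3.10 and 1.92 CPM in HFSC flox. The groups overlapped widely for both, with differences of -0.06 (95% interval -0.72 to 0.60) and -0.17 (95% interval -1.46 to 1.12). Col6a4 had 3, 4 and 8 reads in HFSC KO and 3, 0, 5 and 5 reads in HFSC flox.

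The diets were compared within each genotype. In KO muscle, all 5 chains rose on HFSC relative to chow: by 2.31 ± 0.34 on the log2 scale for Col6a1 (edgeR adjusted p = 0.00201), 2.32 ± 0.31 for Col6a2 (0.00136), 2.12 ± 0.36 for Col6a3 (0.00341), 2.45 ± 0.36 for Col6a6 (0.00187) and 2.98 ± 0.78 for Col6a5 (0.0182). The main chains were thus 4.33- to 4.99-fold higher on HFSC, with Col6a1 at 160 ± 2.35 CPM in HFSC KO and 32.3 ± 9.84 CPM in chow KO (SD, n = 3 each). No HFSC KO library overlapped a chow KO library for any chain. This stands against 14.9% of all tested genes called higher in the same comparison and 26.8% with HFSC KO above chow KO in every library. Among the fits that left out 1 library, Col6a5 alone lost its call, without HFSC KO replicate 3 (edgeR adjusted p = 0.0586) and without replicates 2 and 3 of chow KO in turn (0.063 and 0.0769). Its log2 fold change was 4.91 without chow KO replicate 1, and it was also not called when no filter on low counts was used (edgeR adjusted p = 0.0517).

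In flox muscle the diet comparison called none of the 5 chains, against 0.418% of all tested genes. Col6a1 averaged 178 ± 26.03 CPM in HFSC flox (SD, n = 4) and 149 ± 72.9 CPM in chow flox (SD, n = 3), a log2 fold change of 0.25 (95% interval -0.40 to 0.91). Col6a2 and Col6a3 gave 0.37 (95% interval -0.23 to 0.96) and 0.42 (95% interval -0.28 to 1.12), and the HFSC flox libraries overlapped the chow flox libraries for all 5 chains. Col6a6 averaged 22.5 ± 6.68 CPM in HFSC flox (SD, n = 4) and 13.7 ± 6.11 CPM in chow flox (SD, n = 3), with a difference of 0.71 (95% interval 0.04 to 1.38) that did not pass the adjustment (edgeR adjusted p = 0.37). Col6a5 differed by -0.07 (95% interval -1.34 to 1.19). Without chow flox replicate 4 the difference of Col6a1 was -0.09, and again 0 of the 5 chains were called (edgeR adjusted p of 0.326 to 0.915).

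**Figure D2:**
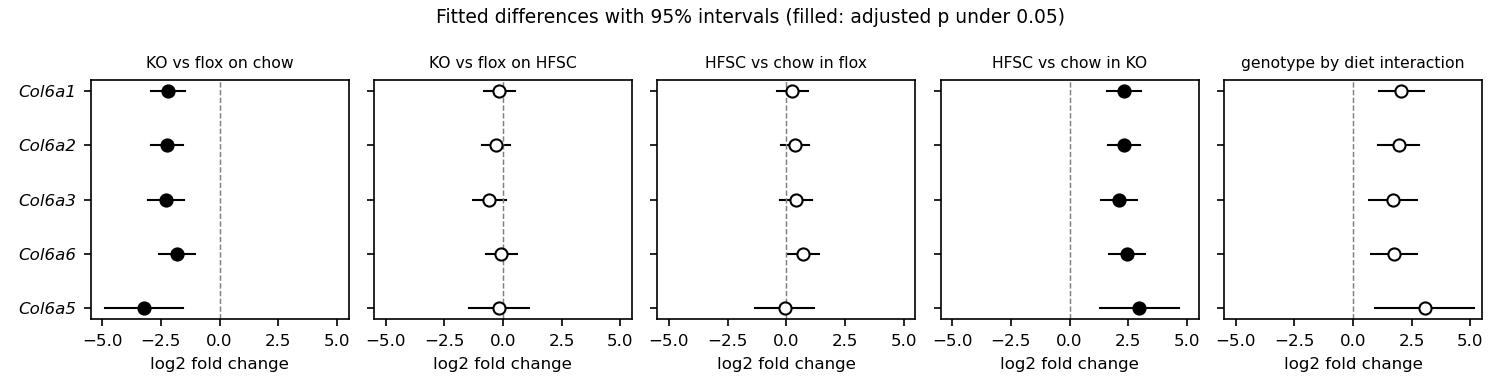
Log2 fold change of each chain in the 4 comparisons of a pair of groups and in the interaction, as a point with its 95% interval; filled points have an edgeR adjusted p under 0.05. The 5 chains are filled on the negative side for KO against flox on chow and on the positive side for HFSC against chow in KO, and open in the other panels.

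Whether the genotype difference itself differed between the diets was tested as an interaction. The KO minus flox difference was higher on HFSC than on chow by 2.06 ± 0.45 on the log2 scale for Col6a1, 1.95 ± 0.40 for Col6a2, 1.70 ± 0.47 for Col6a3, 1.74 ± 0.46 for Col6a6 and 3.05 ± 0.97 for Col6a5. All 5 intervals lay above 0 before adjustment, but none passed it (edgeR adjusted p of 0.0625 to 0.0899). In edgeR the interaction called 0 of all tested genes, or 0%, with 4811 at an unadjusted p under 0.05, whereas DESeq2 called 2025 and limma voom 7061, each with all 5 chains among them. Without chow flox replicate 4 edgeR also called all 5 chains (adjusted p of 0.000201 to 0.00716). The comparisons on chow and within KO share the chow KO libraries, so their opposite signs are not separate observations.

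The chains kept close to fixed proportions while their levels moved. Over the 13 libraries Col6a1 spanned a 9.91-fold range, Col6a2 a 9.38-fold range and Col6a3 a 10.1-fold range. Per kilobase of coding transcript, Col6a2 stayed at 77.5% to 96.8% of Col6a1, and Col6a3 at 29.6% to 54.2% of Col6a1. Pearson's r of log2 CPM was 0.996 between Col6a1 and Col6a2, 0.988 between Col6a2 and Col6a3 and 0.975 between Col6a1 and Col6a3, as a description over 13 libraries that share the group differences above.

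Col6a3 relative to Col6a1 was lower in each HFSC KO library than in any HFSC flox library, by a narrow margin for HFSC KO replicate 3. It was 35.7%, 47.5% and 29.6% in HFSC KO replicates 2, 3 and 4, against 48.2% to 54.2% in the 4 HFSC flox libraries, and these did not overlap. On chow it was 34.7% to 49.1% in chow KO and 43.2% to 46.4% in chow flox, which overlapped. The mean log2 ratio differed by -0.47 on HFSC and -0.05 on chow, as KO minus flox, with no test of either diet alone. Averaged over both diets the difference was -0.26. An exact two-sided permutation test within diets did not separate this average from the spread between libraries (p = 0.0857, adjusted p = 0.246 over 4 tests of chain ratios, with 0.00143 the smallest p the design allows). For Col6a2 relative to Col6a1 the same test gave -0.09 (exact permutation p = 0.123, adjusted p = 0.246), and the differences between diets were 0.04 and -0.03 (exact permutation p = 0.461 and 0.867).

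**Figure D3:**
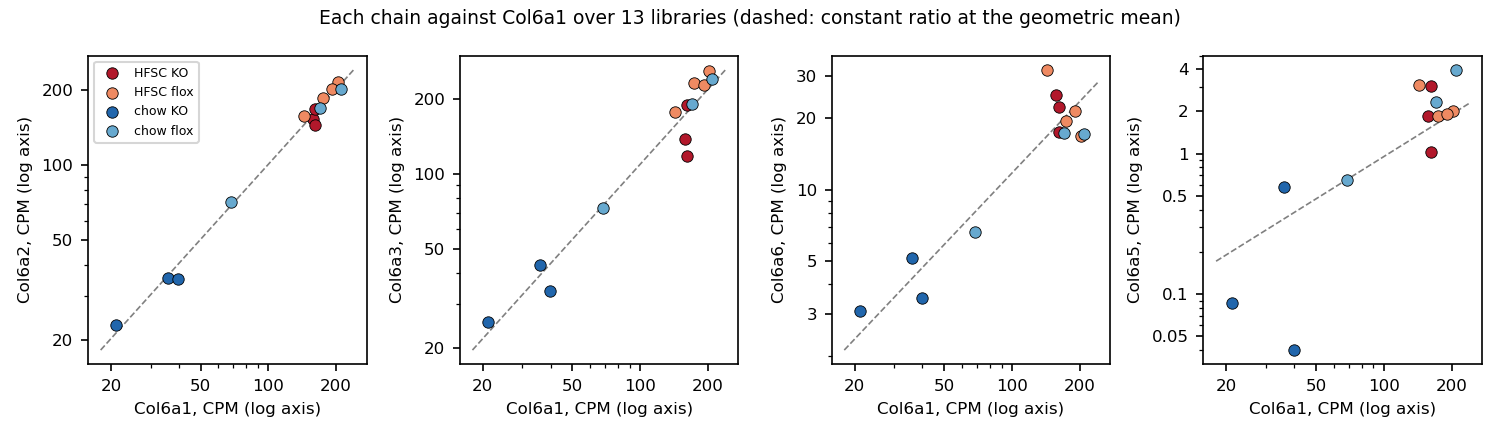
CPM of Col6a2, Col6a3, Col6a6 and Col6a5 against CPM of Col6a1 in 13 libraries (both axes log), coloured by group, with a dashed line of constant ratio at the geometric mean. Col6a2 follows the line most closely. For Col6a3, HFSC KO replicates 2 and 4 and chow KO replicate 2 lie furthest below the line. Among the 9 libraries with high Col6a1, Col6a6 does not rise with it. The lowest of them in Col6a1, HFSC flox replicate 3 (143 CPM), has the highest Col6a6 (32.1 CPM). The highest in Col6a1, chow flox replicate 3 (210 CPM), has 17.1 CPM of Col6a6, with no test made.

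The less abundant long chains followed the main chains less closely. Col6a6 correlated with Col6a1, Col6a2 and Col6a3 at a Pearson's r of 0.919 to 0.940 but at a Spearman's rho of 0.41 to 0.48. Per kilobase, Col6a6 was 13.5% to 20.7% of Col6a3 in HFSC KO, 7.51% to 20.8% in HFSC flox, 11.9% to 13.95% in chow KO and 8.23% to 10.5% in chow flox. Every chow KO library was thus above every chow flox library in this share, while on HFSC the groups overlapped, a description with no test. Col6a5 was 0.955% to 1.75% of Col6a3 per kilobase in HFSC KO, 0.855% to 1.90% in HFSC flox, 0.128% to 1.46% in chow KO and 0.967% to 1.81% in chow flox, so that chow KO held the lowest values and the widest spread.

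The 10 genes whose levels were most like the mean of Col6a1, Col6a2 and Col6a3, by Pearson's r of log2 CPM over 13 libraries among 12172 named genes averaging 1 CPM or more, were Col3a1, Pcolce, Col5a1, Sulf2, Fbn2, Col5a2, Fbn1, Col1a2, Loxl1 and Mmp2. Their r ran from 0.978 for Mmp2, the gelatinase A gene, to 0.991 for Col3a1, which encodes the chain of fibrillar collagen III. Others encode fibrillar collagen I and V chains, fibrillins, a heparan sulphate endosulphatase (Sulf2), a lysyl oxidase (Loxl1) and the enhancer of procollagen C-proteinase (Pcolce). By Spearman's rho only 1 of these 10 stayed among the 10 most alike. Levels alike in this sense need not keep a fixed ratio. The ratio of Col6a1 to Col3a1 in CPM was 0.254 to 0.394 in chow KO, against 0.0878 to 0.174 in chow flox, and 0.133 to 0.162 in HFSC KO, against 0.119 to 0.130 in HFSC flox. Col6a1 thus stood higher relative to Col3a1 in KO than in flox libraries within each diet, without overlap and with no test made.

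Genes that act with collagen VI were taken from lists by role. Of all tested genes, 10.1% were called lower in chow KO and 14.9% were called higher on HFSC in KO. Among 7 receptors, 2 fell in chow KO, namely Antxr1 (log2 fold change -2.21) and Antxr2 (-0.86), the anthrax toxin receptors that bind collagen VI, and 5 did not pass, among them Itgb1 (-0.24), the beta subunit of the collagen-binding integrins, and Cspg4 (-0.73), the NG2 proteoglycan. Antxr1 averaged 7.43 ± 2.10 CPM in chow KO and 34.4 ± 21.5 CPM in chow flox (SD, n = 3 each). In KO muscle on HFSC against chow, 5 of 7 receptors rose, with Itgb1 (0.64), Antxr2 (1.16), Itga10 (1.86) and Antxr1 (1.59) having the smallest p. The median log2 fold change of the receptors was -0.86 on chow and 1.16 between diets in KO, beside -0.01 and 0.02 for all tested genes.

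Matrix partners moved with the chains in both comparisons, in which 10.1% and 14.9% of all tested genes were called the same way. Of 14 tested, 13 fell in chow KO, with a median of -2.18, close to the -2.25 of the 5 chains, and Vwa1 (0.15), the gene for WARP, a partner of collagen VI, did not pass. Col3a1 (-3.73), Col4a1 (-2.06), Col4a2 (-1.79) and Col1a1 (-3.69) had the smallest p, where Col4a1 and Col4a2 encode the basement membrane collagen IV. Between diets in KO, 12 of 14 rose with a median of 1.86, led by Col4a1 (3.06), Col4a2 (2.67), Col3a1 (3.37) and the matrilin gene Matn2 (1.90). Col4a1 averaged 611 ± 52.7 CPM in HFSC KO and 73.2 ± 16.6 CPM in chow KO (SD, n = 3 each).

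Of 18 genes for collagen folding and processing, 11 fell in chow KO (median -0.95), beside 10.1% of all tested genes called lower. On HFSC in KO, 10 of them rose (median 0.95), beside 14.9% of all tested genes called higher. Crtap (-1.54), Mmp14 (-2.89), Bmp1 (-1.56) and Serpinh1 (-1.55), which encodes the collagen chaperone HSP47, had the smallest p on chow, and Plod1 (0.86), Serpinh1 (1.91), Crtap (1.40) and P3h1 (0.72) between diets. P4hb, the shared subunit of collagen prolyl hydroxylases that serves other proteins as well, did not pass in either (-0.03 and 0.16). Of 14 genes for TGF-beta ligands, receptors, binding proteins and response genes, 9 fell in chow KO (median -0.87) and 9 rose on HFSC in KO (median 1.01), among them Tgfb1 (-1.51 and 1.24) and the matrix gene Postn (-4.66 and 3.97), while Tgfb2 (0.14 and -0.46) and Tgfb3 (0.10 and -0.09) did not pass. On HFSC, 0 members of these 4 lists were called between KO and flox, and 0 between the diets in flox.

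**Figure D4:**
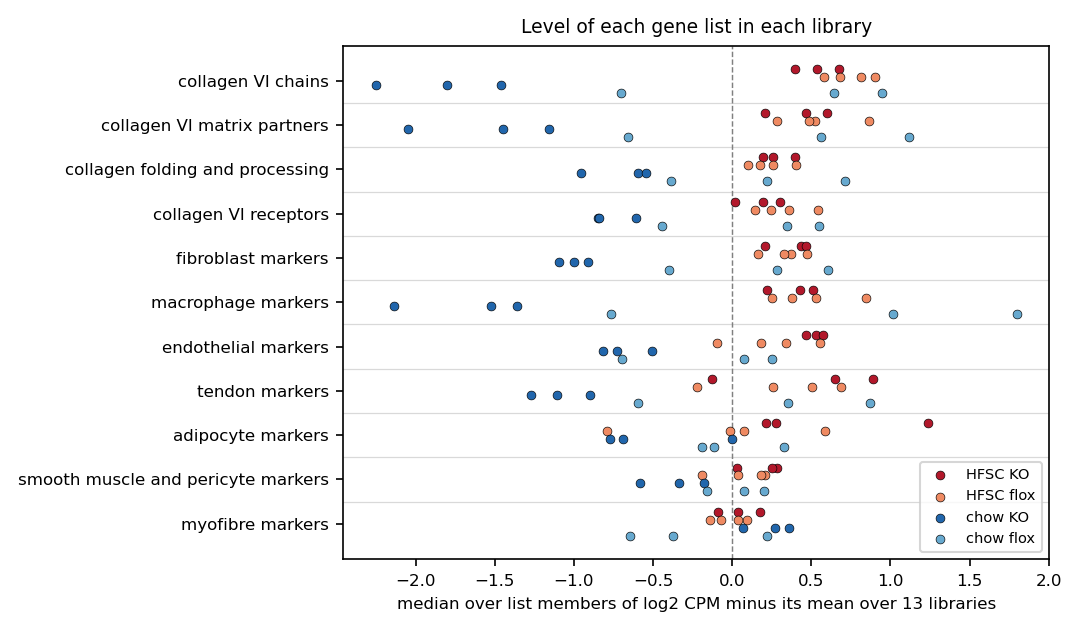
Level of each gene list in each library, as the median over its tested members of log2 CPM minus that gene's mean over 13 libraries, coloured by group, with 1 row of points per group in each band. The chow KO libraries are lowest for the collagen VI chains, their partners and the fibroblast and macrophage markers, and chow flox replicate 4 lies between them and the other libraries, while the myofibre markers do not show this order.

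Markers of the cells that could carry these messages moved as well. Of 14 fibroblast markers, 8 fell in chow KO, with a median log2 fold change of -1.18, and their summed level was 600 to 819 CPM in chow KO, against 1054 to 1403 CPM in chow flox. Between diets in KO, 10 of the 14 rose, with a median of 1.23 and 1199 to 1489 CPM in HFSC KO. On chow the markers' log2 fold changes ran from -2.32 for Lum, the gene for the proteoglycan lumican, to 0.07 for Smoc2, beside -2.21 for Col6a1. All 8 macrophage markers fell in chow KO, with summed levels of 37.3 to 73.8 CPM in chow KO and of 102 to 1009 CPM in chow flox, where replicate 3 was the highest for them and for Col6a1. Of the other markers, 4 of 6 for tendon, 2 of 8 for endothelium, 1 of 8 for smooth muscle and pericytes (Pdgfrb, -0.97) and 1 of 6 for muscle stem cells (Vcam1, -1.36) fell in chow KO, beside 10.1% of all tested genes. For adipocytes 0 of 6 did, for Schwann cells 0 of 6 and for myofibres 0 of 8. Between diets in KO, all 8 macrophage and all 8 endothelial markers rose, beside 14.9% of all tested genes. Summed macrophage levels were 211 to 267 CPM in HFSC KO. In the same comparison 4 of 6 tendon, 3 of 6 adipocyte and 3 of 8 smooth muscle and pericyte markers rose. So did 2 of 8 myofibre markers, although 5 of the 8 had negative differences and their median was -0.27. Of 6 muscle stem cell markers, 2 rose and 1 fell, and 0 of 6 Schwann cell markers were called. The part of these cell types in the differences of collagen VI was not tested.

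The counts for these lists on chow moved with single libraries, and some lists lost calls where the chains kept most or all. Without chow flox replicate 3, chow KO replicate 2 and chow KO replicate 3 in turn, edgeR called 0 of all genes, and so 0 of any list. Without chow flox replicate 2 and chow KO replicate 1 in turn, 452 and 929 of all genes were called, with 4 and 5 chains. Called lower were 7 and 10 of 14 matrix partners, 6 and 7 of 18 folding and processing genes and 2 and 4 of 14 TGF-beta genes. So were 7 and 8 of 14 fibroblast markers and all 8 macrophage markers, but 1 of 7 receptors in each fit and 0 tendon or endothelial markers. Without chow flox replicate 4, 7261 of all genes were called in either direction. Lower in chow KO were 6 of 7 receptors, 13 of 14 matrix partners and 14 of 18 folding and processing genes. So were 10 of 14 TGF-beta genes, 10 of 14 fibroblast markers and 8 of 8 macrophage markers. Also lower were 7 of 8 endothelial markers and 5 of 6 tendon markers. Of the smooth muscle and pericyte markers, 4 of 8 were lower and 1 was higher. Of the muscle stem cell markers, 1 of 6 was lower and 1 was higher, and 4 of 8 myofibre markers were higher. Between diets in KO, leaving out 1 library gave 1459 to 2975 calls over all genes in either direction. It gave 3 to 5 receptors higher, 6 to 11 matrix partners, 7 to 10 folding and processing genes and 3 to 5 TGF-beta genes. Also higher were 9 to 11 fibroblast markers, 5 to 6 macrophage markers and 5 to 7 endothelial markers. The lowest of these counts came without chow KO replicate 3 for all 7 lists. It also came without chow KO replicate 2 for the receptors and macrophage markers, and without HFSC KO replicate 3 for the TGF-beta genes. Without HFSC KO replicate 4 it came for the receptors, TGF-beta genes and endothelial markers as well. In the other lists, 3 to 5 tendon, 1 to 4 adipocyte and 1 to 3 smooth muscle and pericyte markers were higher. So were 0 to 1 myofibre and 0 to 1 muscle stem cell markers. In the fit without HFSC KO replicate 3, 2 TGF-beta genes were called lower.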

How the data were processed

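RNA from 13 skeletal muscle samples was sequenced after polyA selection, and the authors deposited raw counts for each Ensembl gene. The submitters' processing notes list Trimmomatic 0.36, STAR 2.5.2b, Subread 1.5.2, featureCounts and build GRCm38. Strandedness, annotation release and how multiply aligned reads were counted are not given in the sources used. The labels' extraction text names white adipose tissue, whereas each sample's source is skeletal muscle.

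Samples were grouped by genotype and diet labels. Separate animals are not stated, so the tests gauge only the variation among these samples, some of which may be technical. Replicates differed beyond sampling noise in every pair (chi-square per degree of freedom of 10.5 to 193). The test was the quasi-likelihood F test of edgeR 4.0.16 (R 4.3.3; robust, TMM, filterByExpr, 4 group means, all 13 libraries, Benjamini-Hochberg over 16496 genes, threshold 0.05). It was also run on simulated counts with a small set of changed genes and no library set apart. That setting is unlike these data, so it does not bear on the effect of single libraries. SE is the absolute log2 fold change divided by √F, and intervals are at 95%. Alternatives were DESeq2 1.42.0, limma 3.58.1 voom with sample quality weights, relative log expression (RLE) size factors, library totals, no filter, a replicate block, only the compared groups, and each library left out. Symbols, exons and UTRs are from GENCODE M21, and promoters and microRNAs from RefSeq, which held all 5 chains and both microRNAs. Named genes are the chains, Col6a4, up to 4 called members per list and comparison with the smallest p, the 10 most alike genes (prior count 2) and further list members. Collagen VI and the gene lists were chosen with earlier results of these data known. A count of 0 allows up to 3 counts, or 0.0633 to 0.152 CPM, for counting error only.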

Additional observations from a re-analysis of the deposited data

Results flagged for a closer look

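Among the 4 HFSC flox libraries, Col6a5 had 3.10 CPM in replicate 3, against 1.86, 2.03 and 1.92 CPM in replicates 1, 2 and 4. The gap to the nearest library was 0.864 of the group's range, above Dixon's 95% critical value for 4 samples. Chance alone passes that value in about 1 in 20 groups, and 7 quantities were checked. The same library also had the highest Col6a6 of its group (32.1 CPM) and the lowest Col6a1, Col6a2 and Col6a3. Without it the KO minus flox difference on HFSC was 0.04 for Col6a5 and 0.16 for Col6a6, neither called.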

How the results depend on the processing

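Counts for the gene lists without single libraries were added after seeing the data. On chow, the 5 chains were called lower in KO with RLE factors, library totals, DESeq2 and voom, and 4 of them with no filter, where Col6a5 was lost (edgeR adjusted p = 0.059). With the replicate block 0 were called (adjusted p of 0.0529 to 0.0562), and 0 with only the compared groups in the fit. The replicate numbers did not pair the samples: deviations of same-numbered libraries correlated at -0.34 to 0.08, and the block changed no other call of the chains. Leaving out 1 library gave 0 to 5 called chains on chow, 4 to 5 for the diet in KO, and 0 to 5 for the interaction. For KO against flox on HFSC and for the diet in flox, 0 chains were called under every alternative run. For the interaction DESeq2 and voom called 5 chains. Over all genes, the 1898 calls on chow became 0 with the block, 2 with only the compared groups, 3096 with library totals, 3256 with DESeq2 and 9877 with voom, and 0 to 7261 without 1 library. The 3 calls on HFSC became 0 to 165, the 69 for the diet in flox 4 to 4145, the 4201 in KO 1459 to 7116, and the 0 of the interaction 161 with no filter and 0 to 5928 without 1 library, where 5928 was without chow flox replicate 4. With library totals the median of all genes was -0.35 on chow, -0.16 for the diet in flox, 0.21 in KO and 0.37 for the interaction, 3016 of 3096 calls on chow were lower, against 1670 of 1898 with TMM, and the sign of the chains' differences held. Signs that turned were of uncalled differences. Between KO and flox on HFSC, Col6a6 was 0.0155 with voom, and without 1 library Col6a5 ranged from -0.62 to 0.13 and Col6a6 from -0.18 to 0.16. Between diets in flox, Col6a1 ranged from -0.0901 to 0.580 and Col6a5 from -0.50 to 0.54. The log2 ratio of Col6a3 to Col6a1 between diets ranged from -0.122 to 0.0477. Of the 10 most alike genes, 9 were kept with library totals and 1 with Spearman's rho. The cause of these changes was not tested.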
